A study of Homo sapiens with 6 samples.

Results

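The genes described here are 10 keratins, KRT7, KRT8, KRT15, KRT17, KRT18, KRT19, KRT20, KRT23, KRT80 and KRT81. They were picked by symbol as keratins of biliary and other simple epithelium. The members were selected with group differences of these data known, among them those of the same comparison. Their values and calls are therefore given as a description, and no p-value of a member is reported. All 10 symbols were found among the 23569 genes of the expression table, which lists 36 keratin genes in all. The RNA came from TFK1 cells, a human line derived from a carcinoma of the bile duct outside the liver. The study asked what a higher level of STUB1, an E3 ubiquitin ligase and co-chaperone also called CHIP, does in these cells. Group oeSTUB1 (3 libraries) came from TFK1 cells carrying a lentiviral STUB1 vector, and group oeNC (3 libraries) from TFK1 cells carrying the matching negative control. Both lines were stable and had been selected with puromycin, no inhibitor or other agent was named for these libraries, and as far as the study's methods tell each group was 1 transduced population, so differences between libraries of a group measure only the spread between those libraries, which may be technical.

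Keratins are the intermediate filament proteins of epithelial cells. A filament is built from heterodimers of an acidic type I keratin and a basic type II keratin, so epithelial cells carry both types together. KRT8 (type II) and KRT18 (type I) are the primary pair of simple epithelia and are made by hepatocytes and bile duct cells alike. Cholangiocytes, the epithelial cells that line the bile ducts, add KRT7 (type II) and KRT19 (type I), and antibodies to KRT7, KRT19 and KRT20 are used in pathology to tell biliary tumours from hepatocellular and intestinal ones. Of the 10 members, 6 are type I and 4 are type II. Not all are typical of simple epithelium: KRT81 is known from hair, KRT15 and KRT17 from basal and activated epidermal cells, and KRT80 from a wider range of epithelia.

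The values are FPKM, fragments scaled to gene length and library total, so levels can be compared between genes. Recovered library totals lay between 33106564 and 36744521 fragments. STUB1 itself was at 30.9 to 33.0 FPKM in oeNC and at 61.4 to 74.97 FPKM in oeSTUB1 (log2 fold change 1.03 ± 0.10 (SE), limma adjusted p = 0.000642, n = 3 per group), in the direction of the labels. The library oeSTUB1 replicate 2 stood apart from the other oeSTUB1 libraries. Genes averaging 10 FPKM or more were split into 4 equal classes by the length of their gene models. On the log2 scale the class of the shortest genes (1211 genes) was a median 0.42 higher in that library than in the other oeSTUB1 libraries, and the class of the longest (1210 genes) differed by a median of -0.30. By length KRT18 (1497 bases) lay in the shortest class, and KRT8, KRT81 and KRT7 lay in the next, which was a median 0.20 higher in that library. KRT80 (4401 bases) lay in the class after that, at -0.01. For KRT18, KRT8, KRT81 and KRT7 that library was the highest of oeSTUB1, and for KRT80 it was not. The part of oeSTUB1 replicate 2 in the keratin values was not tested. For the members and the lists, values without it are given beside the results.

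Of the 10 members, 8 had a mean of at least 0.1 FPKM and entered the fit across all genes; KRT17 and KRT23 did not. With a call at an adjusted p under 0.05, 3 of the 8 were called higher in oeSTUB1 (KRT19, KRT80, KRT81), 3 were called lower (KRT8, KRT18, KRT20), and KRT7 and KRT15 were not called. KRT8 and KRT18 lost their calls without the level filter, with the replicate number as a block, and with any library but oeSTUB1 replicate 2 left out. KRT20 lost its call without the filter and with any oeNC library or oeSTUB1 replicate 1 left out. Among all 15353 genes tested, 13.6% were called, 7.01% higher and 6.59% lower. The 3 oeSTUB1 values lay entirely above or below the 3 oeNC values for 7 of the members, and this was so for 38.8% of all genes tested. Since the members were chosen with this contrast in view, nothing is read from these counts. The plot of FPKM by library shows that the levels of the members ran from 4063 FPKM for KRT18 to 0.0246 FPKM for KRT23.

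**Figure D1:**
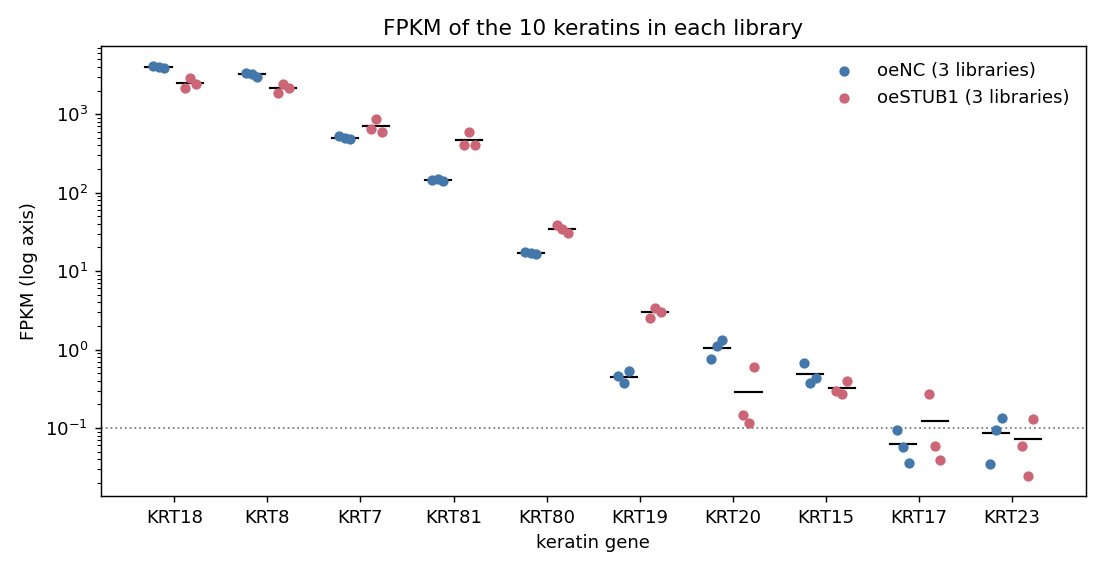
FPKM on a log axis of the 10 keratins in each of the 6 libraries, ordered by mean level; points are libraries, black lines are group means of 3 libraries and the dotted line marks 0.1 FPKM. KRT18 and KRT8 sit at or above 1884 FPKM in every library, KRT19 lies between 0.374 and 0.529 FPKM in oeNC and between 2.51 and 3.41 FPKM in oeSTUB1, and KRT17 and KRT23 lie around the dotted line in both groups.

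The primary pair was lower in oeSTUB1 in every library. KRT8, the type II partner, was at 3335, 3296 and 3018 FPKM in oeNC replicates 1, 2 and 3 and at 1884, 2456 and 2177 FPKM in oeSTUB1 replicates 1, 2 and 3. All oeSTUB1 libraries were below all oeNC libraries. The mean fell from 3216 ± 173 to 2172 ± 286 FPKM (SD, n = 3), a log2 fold change of -0.57 ± 0.14 (SE) on the log2(FPKM + 0.1) scale. KRT18, its type I partner, was at 4063, 3985 and 3844 FPKM in oeNC and at 2147, 2902 and 2415 FPKM in oeSTUB1, again without overlap. Its mean went from 3964 ± 111 to 2488 ± 383 FPKM (SD, n = 3), a log2 fold change of -0.68 ± 0.15 (SE). In both genes oeSTUB1 replicate 2 was the highest of its group. Without that library the log2 fold changes were -0.67 for KRT8 and -0.80 for KRT18. Each pair member varied more between oeSTUB1 libraries than between oeNC libraries, but the ratio of KRT8 to KRT18 stayed within 0.785 to 0.827 in oeNC and 0.846 to 0.902 in oeSTUB1. In bulk RNA, fewer cells making a transcript and less of it per cell cannot be told apart.

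KRT8 and KRT18 are neighbours on chromosome 12 and are transcribed away from each other. In GENCODE release 29 on GRCh38, KRT8 spans chr12:52897187-52949954 on the minus strand and KRT18 spans chr12:52948871-52952901 on the plus strand, and their spans overlap by 1084 bases at the 5′ ends, with 525 bases exonic in both. Both genes also have many processed pseudogenes. Of the distinct stretches of 50 bases in GENCODE transcripts, 16.1% for KRT8 and 24.5% for KRT18 also occur in a transcript of another gene, in 258 and 45 other genes. The expression table lists 0 keratin pseudogenes, and how reads matching several places were counted is not given in the sources used here, so the values of these 2 genes carry that uncertainty in both groups.

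The RefSeq promoter table (GRCh38.p14) holds entries for 2 of the 10 members, KRT8 and KRT20; entries for KRT7, KRT15, KRT17, KRT18, KRT19, KRT23, KRT80 and KRT81 were not found. The 250 bases before each start are shown because the genes fell from very different levels and because the study concerns DNA methylation and a reader may want to see the CpG content. The KRT8 window, chr12:52926470-52926719 on the minus strand, lies inside the GENCODE span of the gene rather than at its outer 5′ end, and the gene-level values do not tell which start was used in TFK1. Capitals mark CG dinucleotides in the KRT8 window.
KRT8: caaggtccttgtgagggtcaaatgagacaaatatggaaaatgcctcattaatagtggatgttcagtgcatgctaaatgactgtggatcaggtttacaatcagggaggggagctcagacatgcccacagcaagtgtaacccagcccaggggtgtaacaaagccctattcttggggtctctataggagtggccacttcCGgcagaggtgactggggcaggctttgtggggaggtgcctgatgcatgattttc
This window holds 1 CG, and its G and C content is 50.4%. The median over all 35116 promoter windows of this length is 11 CG and 58% G or C, and 93.9% of windows hold at least 1 CG.

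The pair that marks bile duct epithelium, KRT7 and KRT19, differed sharply in level. KRT7 was at 527, 498 and 482 FPKM in oeNC and at 654, 872 and 587 FPKM in oeSTUB1. The groups did not overlap, and oeSTUB1 replicate 2 was again the highest library. The means were 502 ± 23.0 and 704 ± 149 FPKM (SD, n = 3), with a log2 fold change of 0.47 ± 0.15 (SE), or 0.30 without oeSTUB1 replicate 2. KRT7 was not among the called genes at the main settings, but it was called with quantile normalization and when that library was left out. KRT7 (chr12:52232520-52252186, plus strand) shares 6.89% of its exonic bases with the antisense gene KRT7-AS, and since the strand setting of the counting is not given here the reads of the 2 genes may not be separable.

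KRT19, the smallest keratin and the usual immunohistochemical marker of cholangiocytes, was at the low end of detection in oeNC and still low beside KRT7 in oeSTUB1. It was at 0.456, 0.374 and 0.529 FPKM in oeNC and at 2.51, 3.41 and 2.99 FPKM in oeSTUB1. These values rest on 22, 18 and 27 recovered fragments in oeNC and on 120, 157 and 142 fragments in oeSTUB1. Every oeSTUB1 library was above every oeNC library, and the ratio of group means was 6.56. The log2 fold change was 2.47 ± 0.17 (SE) with the pseudocount of 0.1, 1.44 with a pseudocount of 1, and 2.71 from the ratio of means without a pseudocount. Leaving out oeSTUB1 replicate 2 gave 2.37. This was the largest absolute log2 fold change among the members, but even in oeSTUB1 KRT19 made up 0.119% ± 0.00387 (SD, n = 3) of the summed type I FPKM of the members. KRT19 lies at chr17:41523617-41528308 on the minus strand, and 0.977% of its 50-base stretches occur elsewhere, all of them in the pseudogene KRT19P1.

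KRT20, a type I keratin of intestinal and gastric foveolar epithelium and of Merkel cells, went the other way. It was at 0.767, 1.10 and 1.31 FPKM in oeNC and at 0.145, 0.117 and 0.600 FPKM in oeSTUB1. The recovered fragments were 48, 69 and 87 in oeNC and 9, 7 and 37 in oeSTUB1. The groups did not overlap, although oeSTUB1 replicate 3 at 0.600 FPKM came close to oeNC replicate 1 at 0.767 FPKM. The log2 fold change was -1.77 ± 0.44 (SE), the largest error of the 8 fitted members, and it ranged from -2.30 to -0.69 over the alternative settings, with -1.46 without oeSTUB1 replicate 2. KRT23, a less studied type I keratin, was close to the detection floor. It had 3, 8 and 12 fragments in oeNC and 5, 2 and 11 fragments in oeSTUB1, which is 0.0352 to 0.133 FPKM and 0.0246 to 0.131 FPKM. The groups overlapped over nearly their whole range, and a difference was not detectable at this depth.

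The KRT20 window (GRCh38.p14, chr17:40885243-40885492, minus strand) is shown with capitals on TTTAT or its reverse complement ATAAA, the core letters of the site bound by CDX2, an intestinal homeobox factor whose transcript is described further on.
KRT20: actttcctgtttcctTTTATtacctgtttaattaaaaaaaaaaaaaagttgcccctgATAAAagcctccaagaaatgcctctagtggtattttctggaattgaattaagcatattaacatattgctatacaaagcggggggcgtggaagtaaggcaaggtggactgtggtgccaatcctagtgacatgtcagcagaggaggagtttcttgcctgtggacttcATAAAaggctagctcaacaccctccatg
The letters occur 3 times, beginning at positions -235, -193 and -28 from the start, and the last of these coincides with the place of a TATA-like element. At least 3 matches were found in 5.20% of all promoter windows of this length, and at least 1 match in 32.7%. The KRT20 window holds 2 CG and 41.2% G or C. Neither GGGCGG (found on either strand in 42.6% of all windows) nor TGANTCA (6.57% of all windows) occurs in the KRT20 or KRT8 window.

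KRT80 and KRT81, both type II, were higher in every oeSTUB1 library than in any oeNC library. KRT80, an epithelial keratin found near desmosomes and at cell edges in many tissues, was at 17.7, 16.98 and 16.3 FPKM in oeNC and at 38.2, 33.9 and 30.5 FPKM in oeSTUB1. Every oeSTUB1 library was well above the highest oeNC library. The means were 16.98 ± 0.704 and 34.2 ± 3.84 FPKM (SD, n = 3), a ratio of 2.01 and a log2 fold change of 1.00 ± 0.10 (SE). Over the alternative settings the log2 fold change of KRT80 lay between 0.92 and 1.08, with 1.00 without oeSTUB1 replicate 2. KRT80 (chr12:52168996-52192000, minus strand) lies across from the long noncoding RNA LINC00592, with which it shares 0 exonic bases.

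KRT81, a hair keratin that is also expressed in some carcinoma lines, was at 144, 149 and 142 FPKM in oeNC and at 401, 600 and 402 FPKM in oeSTUB1. The groups were far apart, and oeSTUB1 replicate 2 was the highest library, with the other 2 nearly equal. The means were 145 ± 3.92 and 467 ± 114 FPKM (SD, n = 3), a ratio of 3.22 and a log2 fold change of 1.66 ± 0.16 (SE), or 1.47 without oeSTUB1 replicate 2. In absolute terms this was the largest gain of any member, and in oeSTUB1 KRT81 was of the same order as KRT7, whose range of 587 to 872 FPKM overlapped its range of 401 to 600 FPKM.

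KRT81 (chr12:52285913-52291534, minus strand) lies within the span of another hair keratin, KRT86 (chr12:52249300-52309163, plus strand), and the coding sequences of the 2 genes are 94.6% identical over 1457 aligned bases. Of the 50-base stretches of KRT81, 43.7% also occur in other genes, 37.6% in KRT86, so fragments of these genes can be assigned to the wrong copy. The 60 coding bases with the most differences between them, bases 1249 to 1308 of either coding sequence in GENCODE release 29, are shown because fragments there can be told apart. Capitals mark the 14 differing bases.
KRT81: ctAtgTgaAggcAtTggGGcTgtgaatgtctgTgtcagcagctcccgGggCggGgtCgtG
KRT86: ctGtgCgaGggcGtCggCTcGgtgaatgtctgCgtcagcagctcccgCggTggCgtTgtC
KRT86, which is not a member, was at 2.28, 1.61 and 1.76 FPKM in oeNC and at 5.91, 7.09 and 5.02 FPKM in oeSTUB1 (log2 fold change 1.62 ± 0.17 (SE), limma adjusted p = 0.000993). It had 365 to 518 fragments in oeNC against 9652 to 10038 for KRT81, so a small share of misplaced KRT81 fragments could weigh on it; that share was not measured. KRT83, another hair keratin of the same block, is 93.8% identical to KRT81 in coding sequence. It was at 0.722 to 1.07 FPKM in oeNC and 0.758 to 1.26 FPKM in oeSTUB1 (log2 fold change 0.18 ± 0.22 (SE), limma adjusted p = 0.637), and its groups overlapped.

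KRT15 and KRT17, type I keratins of basal cells and of activated or injured epithelium, were low in both groups. KRT15 was at 0.668, 0.378 and 0.430 FPKM in oeNC and at 0.293, 0.274 and 0.393 FPKM in oeSTUB1. Its groups overlapped, because oeSTUB1 replicate 3 was above oeNC replicate 2. The log2 fold change was -0.48 ± 0.24 (SE) from 39 to 69 fragments a library in oeNC and 27 to 40 fragments in oeSTUB1, and -0.40 without oeSTUB1 replicate 2. KRT17 had 5, 3 and 2 fragments in oeNC and 14, 3 and 2 fragments in oeSTUB1. Its mean in oeSTUB1, 0.122 FPKM, rests on replicate 1 alone at 0.268 FPKM, and the other 2 libraries were within the oeNC range of 0.0359 to 0.0950 FPKM. KRT15 (chr17:41513743-41522529) and KRT19 are direct neighbours on the same strand of chromosome 17 but lay on opposite sides of 0 in log2 fold change, -0.48 and 2.47.

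**Figure D2:**
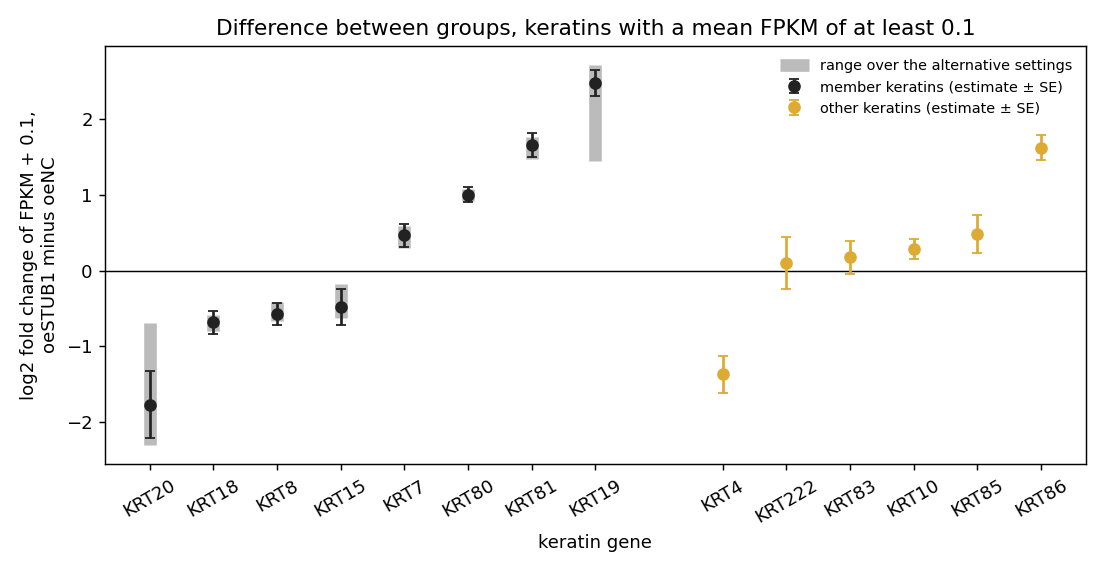
Log2 fold change (oeSTUB1 minus oeNC, log2(FPKM + 0.1) scale) of the keratins with a mean of at least 0.1 FPKM, with standard errors over 3 libraries per group; grey bars show the range over the alternative settings for the 8 members. KRT19, KRT81 and KRT80 stand at 2.47, 1.66 and 1.00, KRT20, KRT18 and KRT8 stand at -1.77, -0.68 and -0.57, and no grey bar crosses 0.

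Because filaments need both types, the members were also summed by type. The type I sum was 4065, 3987 and 3847 FPKM in oeNC and 2151, 2906 and 2419 FPKM in oeSTUB1. The type II sum was 4024, 3961 and 3657 FPKM in oeNC and 2977, 3961 and 3197 FPKM in oeSTUB1, so oeSTUB1 replicate 2 reached the oeNC range. Type II FPKM was thus close to type I FPKM in oeNC, with ratios of 0.990, 0.994 and 0.951, and exceeded it in oeSTUB1, with ratios of 1.38, 1.36 and 1.32. Between the oeSTUB1 libraries the ratio hardly moved, replicate 2 included, although their sums did.

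The make-up of the type II sum shifted as well. KRT8 made up 82.9% ± 0.352 of it in oeNC and 64.5% ± 3.23 in oeSTUB1 (SD, n = 3). The share of KRT7 went from 12.95% ± 0.319 to 20.8% ± 2.09 and that of KRT81 from 3.74% ± 0.147 to 13.7% ± 1.30. KRT80 stayed the smallest share, at 0.438% ± 0.00834 and 1.03% ± 0.224. On the type I side no such shift was seen, since KRT18 made up 99.9% ± 0.00775 in oeNC and 99.8% ± 0.0190 in oeSTUB1. Together the members took 1.34% to 1.45% of the library's fragments in oeNC and 0.965% to 1.29% in oeSTUB1. These shares follow from the gene values above and were not tested.

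**Figure D3:**
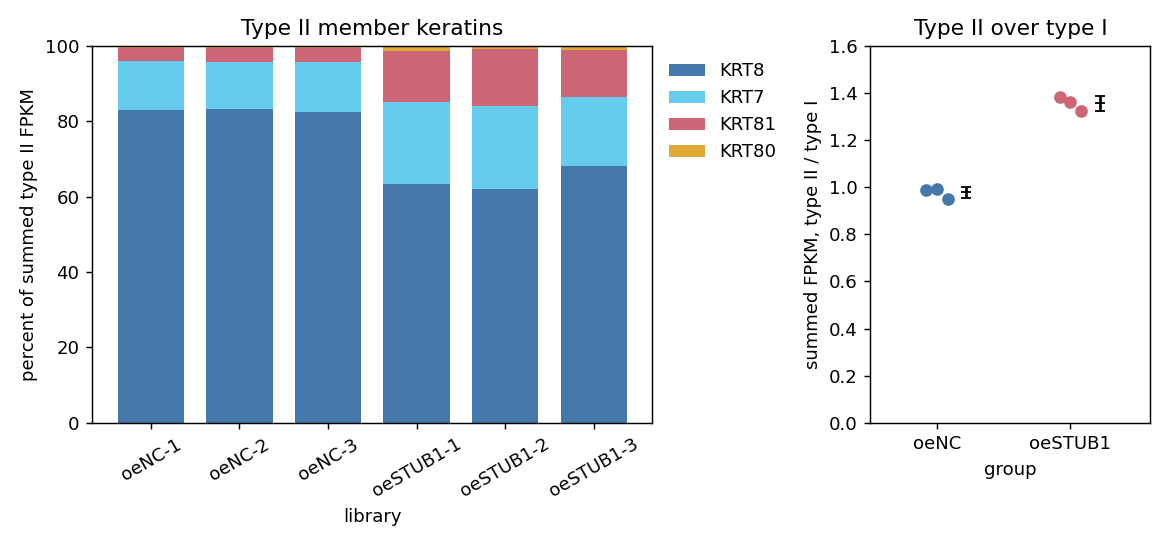
Left, percent of the summed type II FPKM held by KRT8, KRT7, KRT81 and KRT80 in each library; right, the ratio of summed type II to summed type I FPKM per library, with mean and SD of 3 libraries. KRT81 rises from 3.58% to 3.87% in the oeNC libraries to 12.6% to 15.1% in the oeSTUB1 libraries, and the ratio lies between 0.951 and 0.994 in oeNC and between 1.32 and 1.38 in oeSTUB1.

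The order of the levels per length was KRT18, KRT8, KRT7, KRT81 and KRT80 in both groups, from highest to lowest mean. In oeNC each of these 5 stood clear of the next, with no overlap between the libraries of neighbouring genes. In oeSTUB1 the ranges of KRT18 and KRT8 overlapped, as did those of KRT7 and KRT81. Below them, KRT20 was sixth in oeNC and KRT19 eighth, with KRT15 between them and overlapping KRT19. In oeSTUB1 KRT19 was sixth and stood clear of KRT15 at 0.274 to 0.393 FPKM, which overlapped KRT20. KRT17 and KRT23 were last in both groups and overlapped each other, and in oeSTUB1 KRT20 overlapped KRT17 as well.

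All 36 keratins of the table lie on chromosome 12 (20 genes, the type II genes and KRT18) or chromosome 17 (16 type I genes), and few were on. In oeNC, 7 of the genes on chromosome 12 and 2 of those on chromosome 17 had a mean of at least 1 FPKM. On chromosome 12 the detected genes formed separate stretches. KRT80, KRT7, KRT86 and KRT81 follow each other in the table at the start of the cluster, and all 4 had higher means in oeSTUB1. KRT8 and KRT18 close the cluster at its far end, and both had lower means. KRT4, a keratin of oesophageal and other internal squamous epithelium, lies between these stretches, with 2 listed keratins between it and KRT8. It was at 6.998, 7.22 and 8.52 FPKM in oeNC and 2.02, 2.67 and 4.32 FPKM in oeSTUB1 (log2 fold change -1.37 ± 0.24 (SE), limma adjusted p = 0.0101).

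Of the 26 keratins that are not members, 6 had a mean of at least 0.1 FPKM, and KRT86 rose and KRT4 fell while 4 did not pass the test. KRT10, a type I keratin of suprabasal epidermis, was at 13.97 to 16.03 FPKM in oeNC and 15.9 to 22.5 FPKM in oeSTUB1 (log2 fold change 0.29 ± 0.13 (SE), limma adjusted p = 0.191). KRT85, a hair keratin, was at 0.0747 to 0.149 FPKM in oeNC and 0.141 to 0.201 FPKM in oeSTUB1 (log2 fold change 0.48 ± 0.25 (SE), limma adjusted p = 0.248). KRT222, a keratin-like gene, was at 0.203 to 0.292 and 0.141 to 0.525 FPKM (log2 fold change 0.10 ± 0.35 (SE), limma adjusted p = 0.875, and -0.26 without oeSTUB1 replicate 2). In 15 of the 26, all libraries had at most 3 fragments. The other listed keratins next to a member, KRT78, KRT12, KRT39, KRT13, KRT14 and KRT16, had means under 0.1 FPKM in both groups.

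**Figure D4:**
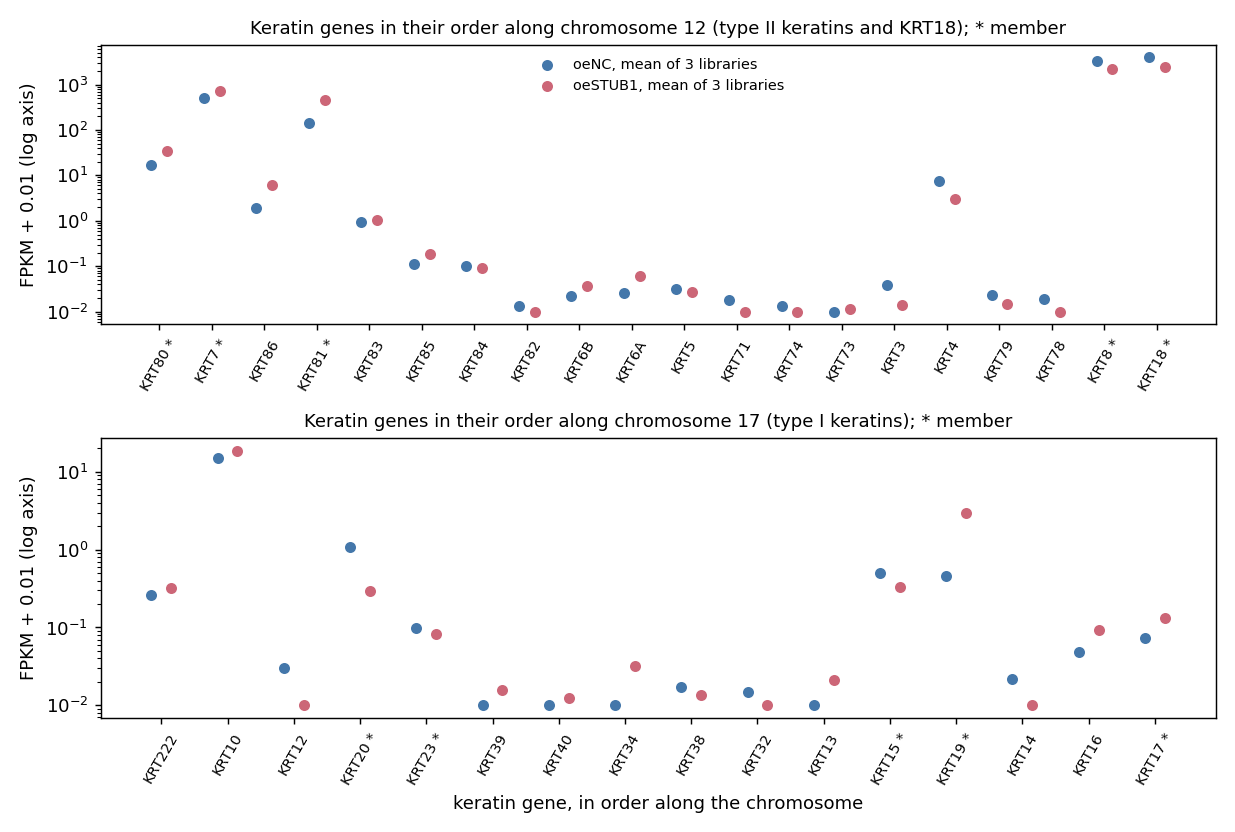
Group mean FPKM plus 0.01, on log axes, of all 36 listed keratins in their order along chromosomes 12 and 17, blue for oeNC and red for oeSTUB1 (3 libraries each); members carry an asterisk. On chromosome 12 the first 4 genes are higher in oeSTUB1 and the last 2, KRT8 and KRT18, are lower; on chromosome 17 only KRT10 exceeds 10 FPKM, and KRT19 goes from a mean of 0.453 to 2.97 FPKM.

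For the 2 members with the largest absolute log2 fold change, KRT19 and KRT20, the genes with the most similar profile were sought by Pearson's r of log2(FPKM + 0.1) over the 6 libraries, over the genes averaging 1 FPKM or more. Over so few libraries many genes reach a high r, and all points share the same group difference. For KRT19 these were STK17A (r = 0.999), WLS (r = 0.999) and GACAT2 (r = 0.999). STK17A, a serine/threonine kinase, was at 5.15 to 5.90 FPKM in oeNC and 12.8 to 15.4 FPKM in oeSTUB1. For KRT20 they were TRIOBP (r = 0.994), CEACAM5 (r = 0.993) and LURAP1L (r = 0.992). Their log2 fold changes were -0.17, -0.99 and -0.40, and TRIOBP and LURAP1L were not called. CEACAM5, a glycoprotein of intestinal epithelium known as carcinoembryonic antigen, was at 2.83, 3.17 and 3.67 FPKM in oeNC and 1.30, 1.32 and 2.22 FPKM in oeSTUB1, with oeSTUB1 replicate 3 the highest of its group as for KRT20.

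Genes that work with keratin filaments were then read from 4 lists. The lists were chosen with earlier results of these data known, so their counts and medians are given as a description. Over all genes tested, 7.01% were called higher and 6.59% lower. Filaments are anchored at desmosomes and hemidesmosomes, and 9 of the 19 tested genes of that list fell while 0 rose. The median log2 fold change of the list was -0.41, beside 0.02 for all genes tested. DSC3, a desmosomal cadherin, fell most, from 3.99 ± 0.173 to 0.894 ± 0.213 FPKM (SD, n = 3, log2 fold change -2.06, limma adjusted p = 0.000402). PPL, the linker periplakin that binds KRT8, fell by 1.26 on the log2 scale (limma adjusted p = 0.00624) and ITGB4, the integrin chain that anchors hemidesmosomes, by 1.18 (limma adjusted p = 0.000844). DSC2 fell by 1.09, JUP, which encodes plakoglobin, by 0.59, and PKP4 by 0.54, and the remaining calls were EVPL, ITGA6 and PERP. ITGA6 lost its call in 8 and PERP in 7 of the 14 alternative settings. DSP, which ties keratins to the desmosome, was at 40.3 to 42.9 FPKM in oeNC and at 32.0, 17.1 and 33.7 FPKM in oeSTUB1, and did not pass the test (log2 fold change -0.67 ± 0.23 (SE), limma adjusted p = 0.103). CD151, the most abundant gene of the list at a mean of 167 FPKM in oeNC and 198 FPKM in oeSTUB1, did not pass either (limma adjusted p = 0.264). At an unadjusted p under 0.05, 12 genes of the list were lower and 0 higher, and limma-voom called 10 lower and 0 higher. The gene models of DSP and ITGB4 (9697 and 6861 bases) belong to the longest class, which was low in oeSTUB1 replicate 2. PPL (6415 bases) has a length within the range of that class, but it averaged under 10 FPKM and was not part of it. For all 3 genes oeSTUB1 replicate 2 was the lowest library. Without it 12 of the 19 were called lower, DSP among them (log2 fold change -0.35), and 1, DST, was called higher. Leaving that library out also raised the share called over all genes tested from 13.6% to 26.8%. DST was chosen for naming after its values were seen.

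Keratins are folded, modified and turned over with the help of chaperones, 14-3-3 proteins, caspases and ubiquitin ligases. Of the 30 tested genes of that list 8 rose and 0 fell, STUB1 itself among the 8, with a median log2 fold change of 0.18. At an unadjusted p under 0.05, 13 were higher and 0 lower, and limma-voom called 8 higher and 0 lower. Without oeSTUB1 replicate 2 the calls were 11 higher and 0 lower, while the share called over all genes rose from 13.6% to 26.8%. TGM2, a transglutaminase that crosslinks keratins, rose by 0.69 on the log2 scale (limma adjusted p = 0.00230), DNAJA1 by 0.68 (limma adjusted p = 0.00691) and HSPB8 by 0.66 (limma adjusted p = 0.00941). HSPA8, the constitutive HSP70 chaperone and a partner of STUB1, rose from 420 ± 67.2 to 659 ± 43.4 FPKM (SD, n = 3, log2 fold change 0.66, limma adjusted p = 0.0178). In oeNC, HSPA8 was at 460 and 456 FPKM in replicates 1 and 2 but at 342 FPKM in replicate 3. DNAJA1 was likewise at 114 and 113 FPKM in oeNC replicates 1 and 2 and at 92.3 FPKM in replicate 3. DNAJB1 rose by 0.55, and the other calls were TCHP, which encodes the KRT8- and KRT18-binding protein trichoplein, and DNAJB6, a chaperone of KRT18. DNAJB6 lost its call in 9 of the 14 alternative settings, among them median-ratio scaling, quantile normalization and limma-voom. TCHP lost its call in 6 alternative settings, HSPA8 in 4 and HSPB8 in 1. Abundant genes that did not pass the test were HSPB1, SQSTM1, UBB, YWHAZ, YWHAE and PPP1CA, with log2 fold changes between -0.05 and 0.26.

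Of the 40 tested transcription factors known to act on keratin genes or epithelial identity, 4 rose and 9 fell, and the median log2 fold change was -0.14. At an unadjusted p under 0.05, 7 were higher and 12 lower, and limma-voom called 4 higher and 11 lower. CDX2, the intestinal factor, fell from 0.178, 0.370 and 0.379 FPKM to 0.0128, 0.0400 and 0.0129 FPKM (log2 fold change -1.71, limma adjusted p = 0.00820), which is 28 to 63 fragments against 2 to 6. HNF4A, a hepatic and intestinal factor, fell by 1.051 (limma adjusted p = 0.00182). SNAI2, a repressor of epithelial genes, rose from 2 to 4 fragments a library in oeNC to 25 to 39 in oeSTUB1 (limma adjusted p = 0.00177), still under 1 FPKM. EHF, an epithelial ETS factor, rose by 0.77 (limma adjusted p = 0.0456; not called in 8 of the 14 alternative settings) and ETS2 by 0.68 (limma adjusted p = 0.00892). STAT3 rose too, and SP3, TFAP2A, FOXA1, NFE2L2 and RARB were among those that fell; SP3 lost its call in 7, TFAP2A in 6 and FOXA1 in 5 alternative settings. Without oeSTUB1 replicate 2, 7 of the list were called higher and 11 lower, beside 26.8% of all genes tested called in either direction.

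Among the other intermediate filaments, 1 of 11 tested genes rose and 2 fell. VIM, the mesenchymal filament vimentin, was the most abundant, at 458 to 524 FPKM in oeNC, close to KRT7, and did not pass the test (log2 fold change 0.07 ± 0.13 (SE), limma adjusted p = 0.768). The neuronal filament genes NEFL (log2 fold change -1.25, limma adjusted p = 0.000144) and PRPH (log2 fold change -1.20, limma adjusted p = 0.0166) fell, and SYNM, which encodes synemin, rose by 0.65 (limma adjusted p = 0.00916). The median log2 fold change of this list was 0.16. At an unadjusted p under 0.05, 3 were higher and 2 lower, and limma-voom called 1 higher and 2 lower. Without oeSTUB1 replicate 2, 3 of its genes were called higher (SYNM, LMNB2 and SYNC) and 2 lower (NEFL and PRPH), LMNB2 and SYNC being named after their values were seen, and the log2 fold change of VIM was -0.055. With that library left out, 26.8% of all genes tested were called.

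**Figure D5:**
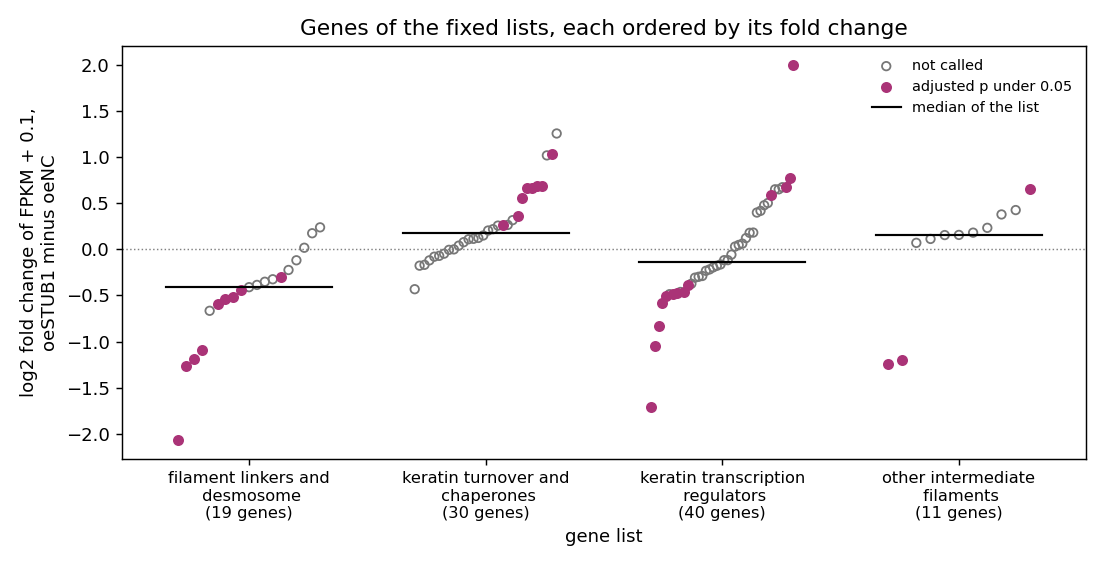
Log2 fold change (oeSTUB1 minus oeNC) of the tested genes of 4 lists, each ordered by fold change; filled points passed an adjusted p of 0.05 in limma and black lines are list medians. The linker and desmosome list has 9 filled points, all below 0, the turnover and chaperone list has 8, all above 0, the regulator list has 13 on both sides, and the other filaments have 3.

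Markers of cell types were set beside the keratins. Of 12 biliary markers apart from keratins 11 are in the table and 10 were tested, and 5 of them, among them EPCAM, CDH1, SPP1 and ANXA4, fell while MUC1 rose. At an unadjusted p under 0.05, 3 were higher and 6 lower, and limma-voom called 1 higher and 5 lower. CFTR, a defining channel of cholangiocytes, had at most 3 fragments in every library. The summed FPKM of the biliary markers ranged from 382 to 398 over the oeNC libraries and from 265 to 298 over the oeSTUB1 libraries. Most of this sum came from ANXA4, SPP1 and CDH1, with means of 131, 125 and 62.6 FPKM in oeNC. For a line labelled as bile duct carcinoma, then, KRT7, KRT8 and KRT18 were abundant whereas CFTR was nearly absent. KRT19 was low, with means of 0.453 FPKM in oeNC and 2.97 FPKM in oeSTUB1. Of 10 hepatocyte markers, FGB carried nearly all of the sum, which was 96.0 to 101 FPKM in oeNC and 55.5 to 75.5 FPKM in oeSTUB1, and 4 had at most 3 fragments in every library. Squamous markers summed to 10.8 to 11.6 FPKM in oeNC and 10.1 to 12.2 FPKM in oeSTUB1. Most of that sum was LAMB3, with means of 7.21 FPKM in oeNC and 6.74 FPKM in oeSTUB1. Of the 6 tested squamous genes, 0 were called by limma or limma-voom and 1 had an unadjusted p under 0.05. DSG3 was near 0 and KRT5, KRT6A and KRT14 stayed under 0.1 FPKM. Fibroblast markers summed to 1.31 to 2.36 FPKM in oeNC and 2.16 to 4.05 FPKM in oeSTUB1. Nearly all of it was COL1A1, with means of 1.62 FPKM in oeNC and 2.81 FPKM in oeSTUB1. Of the 2 tested fibroblast genes, 0 were called by limma or limma-voom. Both were under an unadjusted p of 0.05, in opposite directions. DCN and COL1A2 were near 0. Endothelial markers summed to at most 0.231 FPKM in any library. Leukocyte markers summed to 28.0 to 28.6 FPKM in oeNC and 20.5 to 21.4 FPKM in oeSTUB1, nearly all of it CD68, which fell. The part of these differences in the keratin values was not tested.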

How the data were processed

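RNA of 6 TFK1 libraries was sequenced, 3 of oeNC and 3 of oeSTUB1, from total RNA. The authors deposited FPKM values for 23569 genes by symbol. The submitters' processing notes name fastp 0.20.1, HISAT2 2.1.0, HTSeq 0.11.2 and GRCh38.p13; the annotation, the strand setting and the handling of reads that match several places are not given in the sources used here. Conditions and replicate numbers came from the sample labels, and columns were matched by name.

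From the deposited FPKM, whole fragments were recovered for 23569 genes, up to a common divisor; limits stated from them cover counting error only. Genes averaging 0.1 FPKM or more over the 6 libraries (15353) were fitted as log2(FPKM + 0.1) by limma (version 3.58.1, R version 4.3.3), using lmFit, eBayes with an intensity trend, two-sided p-values and Benjamini-Hochberg adjustment over all fitted genes. A gene was called at an adjusted p under 0.05. A pseudocount understates the fold change of low genes. The steps were tested on simulated data.

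The members and the gene lists were chosen with earlier results of these data known. Named genes were all members, STUB1, every other fitted keratin, keratins next to a member, up to 6 called genes of each list by absolute log2 fold change, list genes averaging 100 FPKM or more, and the 3 genes most like KRT19 and KRT20; some of the remaining called list genes, DSP, and marker genes were named after their values were seen. A few list and marker genes are not reported here by name. The fit was repeated without a filter, with a filter at 1 FPKM, with a pseudocount of 1 or 0.01, after quantile normalization or median-ratio scaling, without each library in turn, with the replicate number as a block, and as limma-voom with TMM factors on the recovered fragments; ratios of group mean FPKM were also taken. Gene positions and transcripts came from GENCODE release 29 (GRCh38) and promoter windows from RefSeq (GRCh38.p14), which matched 2 of 10 members. Shared 50-base stretches were counted on both strands.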

Additional observations from a re-analysis of the deposited data

How the results depend on the processing

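The direction of the log2 fold change of all 8 fitted members was the same under every alternative, with 112 of 118 values within 1 SD between libraries of the main value; the exceptions were KRT8 under quantile normalization, KRT15, KRT19 and KRT20 with a pseudocount of 1, and KRT19 with a pseudocount of 0.01 and as a ratio of means. The members called higher stayed at 3 or became 4. The members called lower depended more on the settings: 0 without a filter and 0 to 3 when a library was left out, where KRT8, KRT18 and KRT20 lost their calls without any oeNC library or oeSTUB1 replicate 1, and KRT8 and KRT18 without oeSTUB1 replicate 3. Fewer libraries also lowered the count over all genes, from 2088 to between 933 and 1615, except without oeSTUB1 replicate 2, where it was 4112. With a library left out, other keratins called were 1 to 2, linker and desmosome genes 5 to 13, turnover and chaperone genes 5 to 11, regulators 6 to 18 and other filaments 2 to 5, the highest numbers coming without oeSTUB1 replicate 2. Same-numbered libraries of the 2 groups shared no deviation (r = -0.05, -0.05 and 0.06 over 15353 genes), so the numbers were not taken as a pairing; with the replicate block 1 member was called lower (KRT20), 3 were called higher, and the linker and desmosome calls were 7. Of 722 values of the other genes named, 87 lost their call and 1 gained it, DSP without oeSTUB1 replicate 2. A further 11 changed sign, all in genes that were never called and all with a library left out, where log2 fold changes ranged from -0.26 to 0.43 for KRT222, -0.13 to 0.031 for SQSTM1, -0.055 to 0.18 for VIM, -0.087 to 0.049 for YWHAE and -0.025 to 0.015 for YWHAZ. STUB1 kept its call in every setting. At this depth KRT17 and KRT23, at 2 to 14 fragments a library, allow no comparison.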
